A study of Mus musculus with 6 samples.

Results

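The genes described here carry RIKEN clone names of the RIKEN-4931, RIKEN-4932 and RIKEN-4933 series, such as 4931407G18Rik, a naming that dates from full-length cDNAs of mouse testis libraries. All genes of the array whose symbol has this form were taken, 1 exception aside, which gave 190 of the 23152 genes measured. Of these, 36 are RIKEN-4931, 24 RIKEN-4932 and 130 RIKEN-4933 names. RNA of testicular germ cells from FVB males at 23 days post-partum (dpp) was hybridized to 6 Affymetrix Mouse Gene 2.0 ST arrays. Of these arrays 3 were labelled control (Mgat1[F/F]) and 3 were labelled Mgat1 mutant (Mgat1[F/F]:Stra8-iCre, here Mgat1 cKO). Both genotypes carried the floxed Mgat1 alleles. In the cKO, iCre recombinase under control of the Stra8 promoter deletes Mgat1 from spermatogonia on. RNA of 6 mice was pooled for each genotype, and the pool was split over its 3 arrays. Each p-value thus rests on the spread of aliquots, and differences among mice are not covered.

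A clone name says only where a cDNA was first found. Many genes first cloned from testis are transcribed in spermatids, the haploid cells that build the acrosome and the flagellum and compact their nucleus before they become sperm. The first wave of spermatogenesis in the mouse runs in step across the testis, so that near this age round spermatids are the most advanced germ cells to be found in number. Of the 190 genes, 79 are protein coding in RefSeq, 104 are long non-coding RNAs (lncRNAs), 6 are transcribed pseudogenes and 1 is a miscellaneous RNA. The array symbols are old, and 52 of the genes now have another RefSeq symbol, such as Cabs1 or Spem2, which is given in brackets here.

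Values are log2 levels after robust multi-array averaging (RMA), averaged over the probe sets of a gene. The 190 genes had a median of 5 probe sets, with 11 genes on 1 probe set and 1 gene on 83. Levels of different genes also depend on their probes, and the table holds no detection calls, so a low level may lie within background. Genes were tested with limma, and a gene was called higher or lower at a Benjamini-Hochberg adjusted p under 0.05 over all 23152 genes. Mgat1 itself, averaged over 12 probe sets, was at 6.17, 6.44 and 6.33 in the control arrays and 6.35, 6.10 and 6.45 in the Mgat1 cKO arrays. The 2 genotypes overlapped for Mgat1, with a log2 difference of -0.02 (SE 0.11, adjusted p = 0.939), and 1 of the 12 probe sets was called lower, by -1.01. Which probe sets lie in the deleted part is not known here, so this does not check the labels. By qRT-PCR the study reports much lower Mgat1 in Mgat1 cKO germ cells at this age. Arrays correlated at 0.994 to 0.996 within a genotype and at 0.979 to 0.980 between genotypes, and no array stood apart from its group.

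In Mgat1 cKO germ cells 60 of the 190 genes (31.6%) were higher than in control and 4 were lower, while 126 did not pass the test (96 of the 190 had an unadjusted p under 0.05). Over all genes measured, 6.07% were higher and 2.35% lower. By over 2-fold, 24 of the 190 (12.6%) were higher and 0 lower, against 2.53% and 0.0346% of all genes. The lowest difference of the 190 genes was -0.57, whatever its p. The folds of the 24 genes ran from 2.21 to 8.16. The median log2 difference of the 190 genes was 0.11, and that of all genes was -0.05. All Mgat1 cKO values were above all control values for 82 of the 190 genes (43.2%), where the share over all genes was 11.2%. The opposite order held for 19 of the 190, and for 20.1% of all genes.

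Markers of spermatids moved in the same direction. Their lists were chosen with earlier results of these data known. The study had itself reported rises of some of them, such as Spert, Tnp1 and Tnp2, so the counts are not independent of those results. Of 18 measured round spermatid markers 15 were higher, and the mean log2 level of the list was 6.44 to 6.52 in the control arrays and 8.06 to 8.15 in the Mgat1 cKO arrays. Of 16 elongating spermatid markers 15 were higher, with a mean of 6.10 to 6.15 in control and 8.37 to 8.46 in Mgat1 cKO. Limma called 0 of the 10 spermatogonial markers (4 had an unadjusted p under 0.05, and the analysis of variance called 1), and 1 of 15 spermatocyte markers was higher, namely Pgk2, a glycolytic enzyme of meiotic and later germ cells. The lists of other cell types held no higher gene. Lower were 1 of 13 Sertoli cell, 2 of 7 Leydig cell and 4 of 10 stromal markers. So were 5 of 10 macrophage and 5 of 10 epididymal markers, where the share over all genes was 2.35%. Counted without direction, the analysis of variance called 2 spermatocyte, 2 Sertoli cell, 1 Leydig cell, 3 stromal, 2 macrophage and 4 epididymal markers. Whether the preparation held epididymal cells was not tested. In RNA of a whole preparation, more cells of a type and more RNA per cell cannot be told apart, and the part of either in the differences of the 190 genes was not tested.

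**Figure D1:**
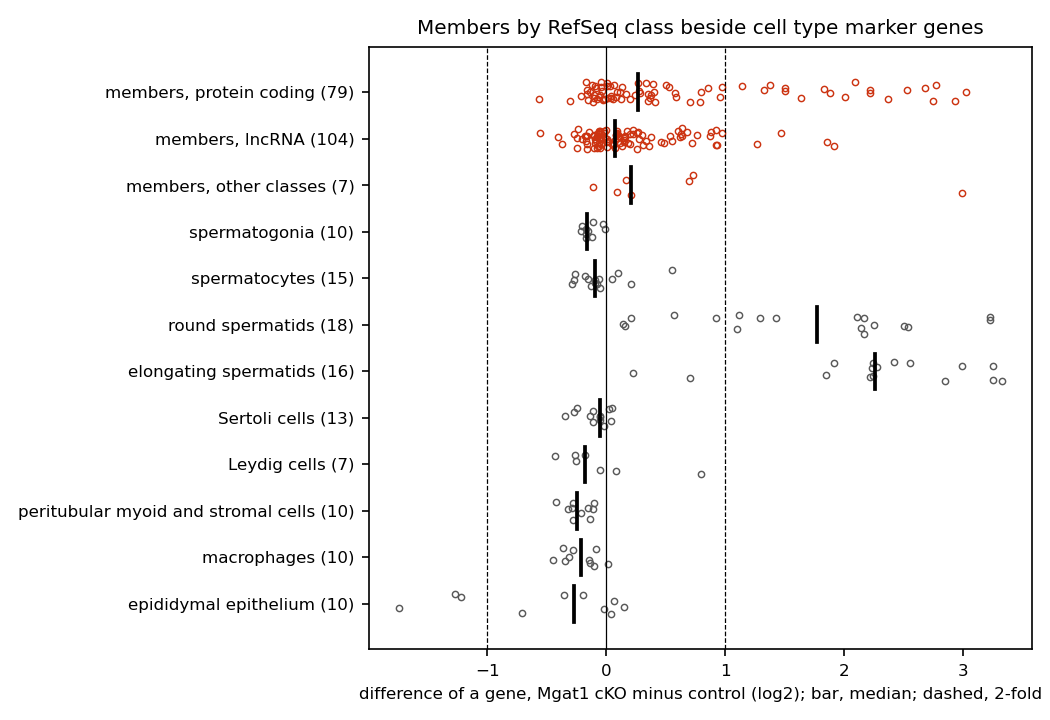
Differences of single genes between genotypes (log2, Mgat1 cKO minus control; x axis), with the clone-named genes by RefSeq class in red and cell type markers in grey. Bars are medians, dashed lines mark 2-fold and the number of genes is in brackets. The coding genes spread to 3.03 with a median of 0.27, and the medians of the round and elongating spermatid markers are 1.77 and 2.26.

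The largest difference was that of 4933422H20Rik (Trim80), which encodes a member of the tripartite motif family on chromosome 11. Its levels were 4.74, 4.90 and 4.47 in the control arrays and 7.73, 7.76 and 7.70 in the Mgat1 cKO arrays. The control arrays were all below 5 and the Mgat1 cKO arrays all above 7.5, a log2 difference of 3.03 (SE 0.11, adjusted p = 7.49e-07), or 8.16-fold. 4933400A11Rik, a transcribed pseudogene of the X chromosome, followed, at 4.04, 4.22 and 3.82 in control and 7.05, 6.95 and 7.06 in Mgat1 cKO. These arrays lay far apart too, by 2.99 (SE 0.10, adjusted p = 6.10e-07). The coding gene 4933405O20Rik on chromosome 7 rests on 1 probe set, which read 6.55, 6.45 and 6.60 in control and 9.58, 9.44 and 9.36 in Mgat1 cKO. The groups did not overlap, and the difference was 2.93 (SE 0.08, adjusted p = 2.53e-07).

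**Figure D2:**
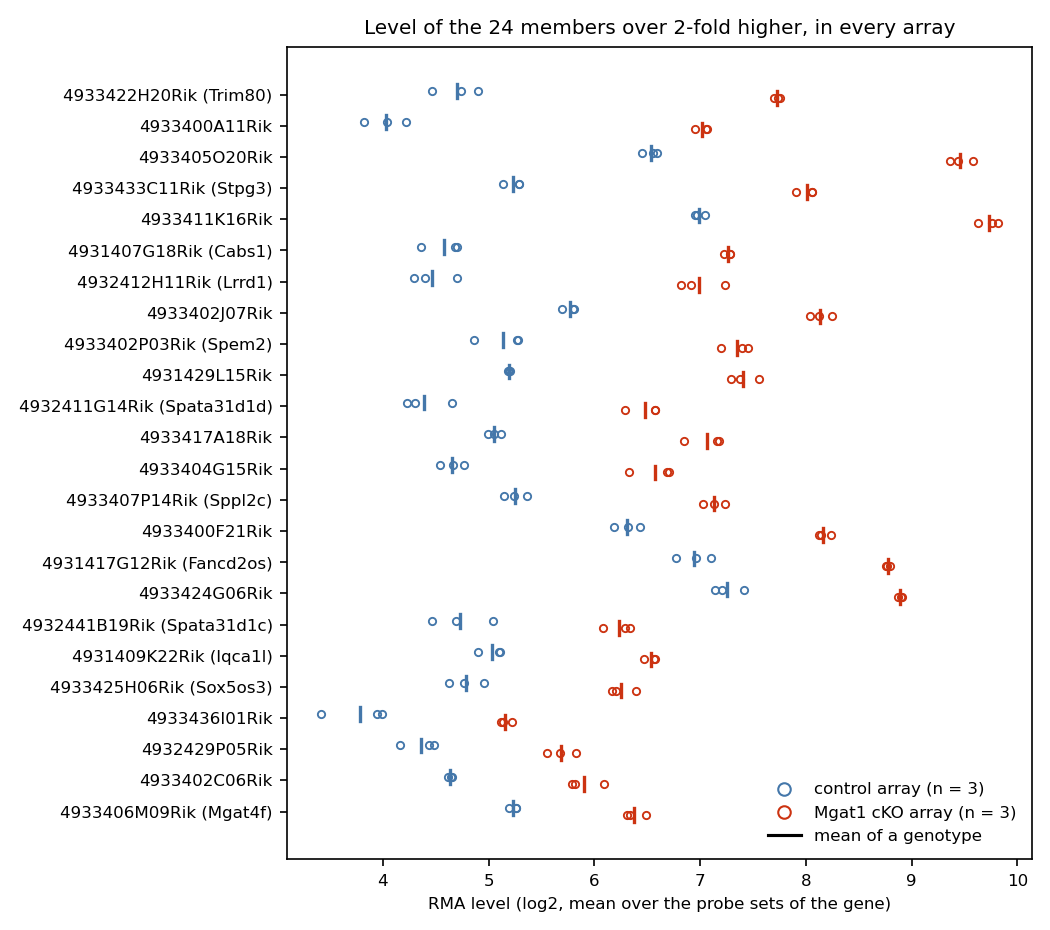
Log2 RMA level (x axis) of each of the 24 genes that were over 2-fold higher, with 1 circle for each of the 3 control (blue) and 3 Mgat1 cKO (red) arrays and a bar at the mean of a genotype. In each of the 24 genes, the lowest Mgat1 cKO array lies above the highest control array, which largely follows from their selection. The order runs from 4933422H20Rik (3.03) to 4933406M09Rik (1.14).

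Several of the larger rises were of genes that are known from spermatids. 4931407G18Rik (Cabs1) encodes a calcium-binding protein of spermatids and was at 4.68, 4.70 and 4.36 in the control arrays. In the Mgat1 cKO arrays it was at 7.23, 7.29 and 7.28, which is 6.42-fold higher (log2 difference 2.68, SE 0.10, adjusted p = 7.81e-07). The 3 Mgat1 cKO values lay within 0.1 of each other, and the control values were more spread. 4933402P03Rik (Spem2) belongs to the family of Spem1, which mouse spermatids need to shed cytoplasm from the head. It read 5.27, 5.27 and 4.86 in control and 7.39, 7.20 and 7.46 in Mgat1 cKO, a difference of 2.21 (SE 0.13, adjusted p = 9.58e-06). Control replicate 3 was its lowest array, and the groups did not overlap. 4933407P14Rik (Sppl2c), an intramembrane protease of spermatids, rose from 5.25 ± 0.11 to 7.13 ± 0.10 (SD, n = 3 arrays each), by 1.88 (adjusted p = 2.36e-06).

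2 genes of the Spata31 subfamily D were among the 24. 4932411G14Rik (Spata31d1d) was at 4.30, 4.65 and 4.23 in control and 6.29, 6.57 and 6.57 in Mgat1 cKO, a difference of 2.09 (SE 0.13, adjusted p = 1.45e-05). Its relative 4932441B19Rik (Spata31d1c), also on chromosome 13, was at 5.04, 4.69 and 4.47 and 6.29, 6.34 and 6.08, a difference of 1.504 (SE 0.14, adjusted p = 2.54e-04). Of the 5 probe sets of 4932441B19Rik, 2 were called higher and 3 had a higher mean, with differences from -0.56 to 3.05. Averaged over probe sets, both genes had separate groups of arrays. Genes of this family are close copies, and how far their probe sets tell them apart was not tested.

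Values of some further named genes follow. 4933433C11Rik (Stpg3), named for its sperm-tail PG-rich repeats, was at 5.28, 5.13 and 5.29 in control and 8.06, 7.91 and 8.05 in Mgat1 cKO, with no overlap, and rose by 2.77 (SE 0.08, adjusted p = 2.64e-07). 4931409K22Rik (Iqca1l), which carries an IQ motif, rose from 5.03 ± 0.12 to 6.54 ± 0.06 (SD, n = 3 each), by 1.501 (adjusted p = 5.50e-06). 4932425I24Rik (Maats1), an axonemal protein, was called at the edge, with 7.23, 7.26 and 7.34 in control, 7.51, 7.61 and 7.50 in Mgat1 cKO and a difference of 0.27 (adjusted p = 0.0467). 4933411K20Rik (Cfap97), named for cilia and flagella, was at 10.25, 10.21 and 10.21 in control and 10.22, 10.22 and 10.28 in Mgat1 cKO. Its arrays overlapped, and the difference of 0.02 did not pass (SE 0.06, adjusted p = 0.889).

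2 of the clone names stand for relatives of the GlcNAc-transferase IV enzymes, which act on N-glycans after MGAT1. 4933406M09Rik (Mgat4f) was the last of the 24 past 2-fold, at 5.19, 5.25 and 5.26 in control and 6.49, 6.31 and 6.34 in Mgat1 cKO. The groups were separate, by 1.14 (SE 0.07, adjusted p = 1.43e-05). 4931440L10Rik (Mgat4e), which also lies on chromosome 1, was at 6.28, 6.31 and 6.39 and 6.19, 6.37 and 6.60. These arrays overlapped, and the difference of 0.06 did not pass (SE 0.10, adjusted p = 0.759). The difference between the 2 genes was not tested.

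Among coding genes still known by their clone name, 4933411K16Rik of chromosome 19 was at 6.97, 6.95 and 7.04 in control and 9.62, 9.82 and 9.76 in Mgat1 cKO, a difference of 2.74 (SE 0.07, adjusted p = 2.53e-07). 4933402J07Rik of chromosome 8 was at 5.69, 5.81 and 5.80 in control and 8.13, 8.24 and 8.04 in Mgat1 cKO, 2.37 higher (SE 0.07, adjusted p = 4.70e-07). Neither gene had overlapping groups. 4931429L15Rik of chromosome 9 read 5.18, 5.20 and 5.21 in control, the closest 3 control arrays of the 24 genes, and 7.56, 7.29 and 7.38 in Mgat1 cKO, with a difference of 2.21 (SE 0.08, adjusted p = 7.61e-07). 4933417A18Rik of chromosome 13 was at 5.05, 4.99 and 5.11 and 7.18, 6.85 and 7.16, a difference of 2.01 (SE 0.10, adjusted p = 4.09e-06). In this gene Mgat1 cKO replicate 2 was below the other 2 arrays of its genotype, yet above every control array. 4932412H11Rik (Lrrd1), with leucine-rich repeats and a death domain, had the widest Mgat1 cKO group of the 12 largest rises, at 7.24, 6.91 and 6.82, against 4.70, 4.39 and 4.29 in control (difference 2.53, SE 0.14, adjusted p = 7.52e-06).

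Sorted by class, 35 of the 79 coding genes (44.3%) were higher, 19 of them by over 2-fold, and 1 was lower. Over all coding genes of the array 5.73% were higher, 2.42% by over 2-fold. Of the 104 lncRNAs, 22 (21.2%) were higher, 4 by over 2-fold, and 3 were lower. Over all lncRNAs of the array 10.3% were higher, and 3.91% by over 2-fold, close to the 3.85% of the 104. The lncRNAs past 2-fold were 4933404G15Rik (difference 1.92), 4933400F21Rik (1.86), 4933425H06Rik, named Sox5os3 (1.47), and 4933402C06Rik (1.27). 4933400F21Rik was at 6.18, 6.43 and 6.31 in the control arrays and at 8.12, 8.24 and 8.14 in the Mgat1 cKO arrays. These groups were over 1.5 apart, and all 4 of its probe sets were called higher. Of the 6 transcribed pseudogenes 3 were higher, where the share over all 311 of the array was 7.07%, and the single miscellaneous RNA did not pass.

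On the X chromosome lie 12 of the 190 genes, and 7 of them (58.3%) were higher, 3 by over 2-fold. Over all X-linked genes of the array 12.3% were higher, and over autosomal genes 5.79%. Besides 4933400A11Rik the genes past 2-fold were 4933436I01Rik and 4932429P05Rik. 4933436I01Rik was at 3.42, 3.99 and 3.94 in control and 5.12, 5.14 and 5.22 in Mgat1 cKO, a difference of 1.38 (SE 0.14, adjusted p = 4.53e-04). The control arrays of this gene were the most spread of all 190 genes, with an SD of 0.32. Of its 4 probe sets 1 was called higher and 3 had a higher mean, with differences from -0.24 to 3.68. 4932429P05Rik was at 4.48, 4.16 and 4.44 and 5.68, 5.55 and 5.82, without overlap, a difference of 1.32 (adjusted p = 8.30e-05). The other 4 X-linked calls had differences of 0.50 to 0.97. Of the 178 autosomal genes, 53 (29.8%) were higher and 21 passed 2-fold.

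The threshold fell within a run of like values. Just above it were 4933406M09Rik (1.14), 4933402C06Rik (1.27) and 4932429P05Rik (1.32). Just below it were 4931413K12Rik (0.97), 4932411N23Rik (0.97) and 4931431F19Rik, a ubiquilin gene now named Ubqln5 (0.96). These 3 were called higher without passing 2-fold, and so were 33 other genes, down to 0.27. The groups did not overlap in any of these 36 genes, which largely follows from the call with 3 arrays of each genotype. 4932411N23Rik lost its call with the methods' analysis of variance (adjusted p = 0.0522) and with medians of probe sets (adjusted p = 0.0542).

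The 24 genes past 2-fold had control levels of 3.78 to 7.25. Of the 57 genes with a control level under 5, 25 were higher, with 6.67% of all genes in that range. From 5 to 6 these were 15 of 39 genes, with 8.96% of all genes, and from 6 to 7 they were 11 of 30, with 7.68%. From 7 to 8 they were 5 of 27, with 4.84% of all genes. Of the 37 genes at 8 or more 4 were higher and 0 passed 2-fold, and the largest of these differences was 0.68, of 4933438K21Rik. Over all genes of the array at 8 or more 2.79% were higher and 0.159% passed 2-fold, so that the lack of such genes among the 37 is near the share of the array.

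**Figure D3:**
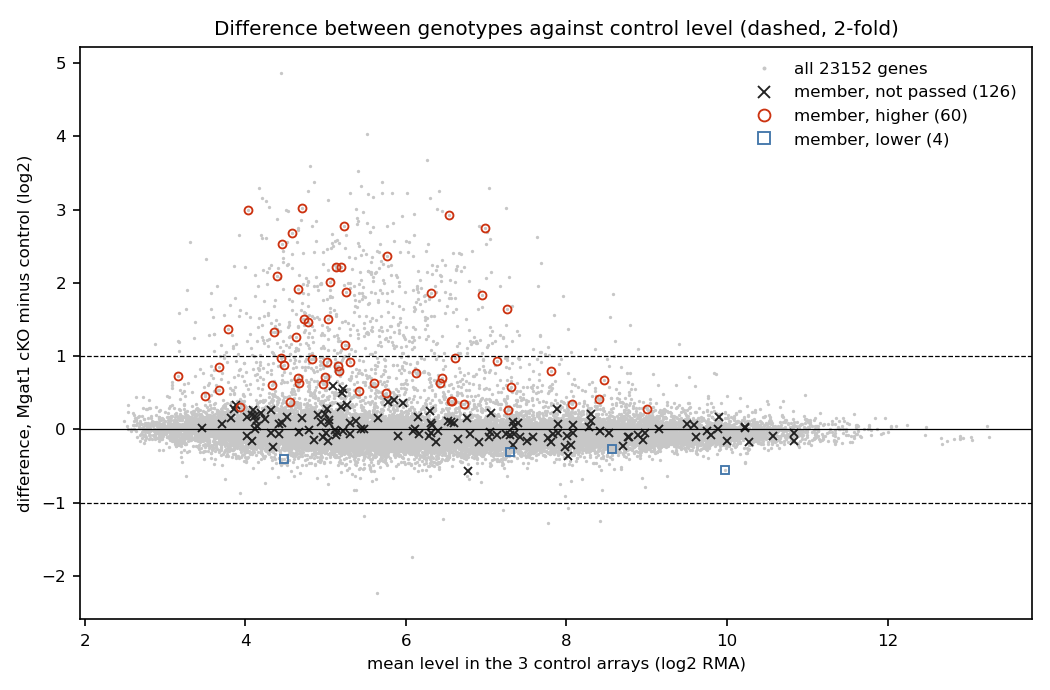
Difference between genotypes (y axis, log2, Mgat1 cKO minus control) against the mean level of the 3 control arrays (x axis, log2 RMA) for all 23152 genes in grey and the 190 clone-named genes by their call (60 higher, 4 lower, 126 not passed). Points above the upper dashed line, which marks 2-fold, lie at control levels of 3.78 to 7.25 for the clone-named genes.

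The 5 genes with the highest signal, as the mean over both genotypes, did not pass. 4933427E11Rik, a lncRNA on 1 probe set, was at 10.87, 10.89 and 10.74 in control and 10.81, 10.64 and 10.90 in Mgat1 cKO. The lncRNA 4932415G12Rik (Cep83os) was at 10.81, 10.85 and 10.84 and 10.68, 10.65 and 10.69, without overlap, a difference of -0.16 (SE 0.06, adjusted p = 0.144). This gene was called lower with an intensity trend (adjusted p = 0.00678), with the methods' analysis of variance (adjusted p = 0.0205) and without dim genes (adjusted p = 0.0497). 4932438A13Rik, with 83 probe sets the most finely covered of the 190, had a difference of -0.10 (SE 0.06, adjusted p = 0.387). For 4933424B01Rik (Ints13), a subunit of the Integrator complex, it was 0.04 (SE 0.06, adjusted p = 0.754). The fifth was Cfap97, given above. Further genes with known names and no call were 4933416C03Rik (Taf7l2), a relative of the TFIID subunit gene Taf7l, with a difference of 0.01 (SE 0.08), and 4933406J08Rik (Terb2), which tethers meiotic telomeres to the nuclear envelope, with -0.21 (SE 0.06, adjusted p = 0.0762).

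Of the 190 genes 4 (2.11%) were lower, which is near the 2.35% of all genes measured. 3 of these are lncRNAs, the class of 104 of the 190 genes. Lower were 2.88% of the 104, and 1.43% of all lncRNAs of the array. 4933406F09Rik of chromosome 14 was at 9.94, 9.99 and 9.98 in control and 9.33, 9.39 and 9.52 in Mgat1 cKO, a difference of -0.56 (SE 0.07, adjusted p = 0.00134). All its control arrays lay above 9.9 and all its Mgat1 cKO arrays below 9.6. 1 of its 3 probe sets was called lower, by -1.37, and another differed by 0.08. 4932441J04Rik was at 4.48, 4.44 and 4.52 in control and 4.14, 4.09 and 3.98 in Mgat1 cKO (-0.41, SE 0.07, adjusted p = 0.00748). The other falls, of 4933408B17Rik (Brd8dc), which bears a bromodomain, and of 4933433G15Rik, were -0.31 (adjusted p = 0.0322) and -0.27 (adjusted p = 0.0422). With each of the 6 arrays left out in turn, 4933433G15Rik lost its call every time (adjusted p up to 0.149), and 4933408B17Rik lost it 5 times (up to 0.107) and kept it without Mgat1 cKO replicate 1. With medians of probe sets 4933406F09Rik alone of the 4 kept its call, at a difference of -1.27, and 4932441J04Rik had an adjusted p of 0.208.

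Probe sets of a gene differed in how far they moved. Of the 1275 probe sets of the 190 genes, 132 were called higher and 1 lower, against 1.87% and 0.18% of all 269751 probe sets. The higher ones belonged to 45 genes. In 21 of the 24 genes past 2-fold every probe set had a higher mean in Mgat1 cKO, and in 6 of the 24 every probe set was called. 4933422H20Rik (Trim80) had the widest range, from 0.10 to 5.77 over 9 probe sets, 7 of which were called. 4931429L15Rik ran from 0.73 to 5.07 (9 of 15 called), 4931409K22Rik (Iqca1l) from -0.12 to 4.16 (9 of 19) and 4933402P03Rik (Spem2) from 0.23 to 4.21 (3 of 4). A mean over such probe sets is smaller than the difference of the probe sets that moved most. In 4933400A11Rik, by comparison, all 6 probe sets were called, from 2.17 to 3.73. A further 83 probe sets name 17 of the 190 genes together with other genes, and limma called 0 of them, while 11 had an unadjusted p under 0.05.

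**Figure D4:**
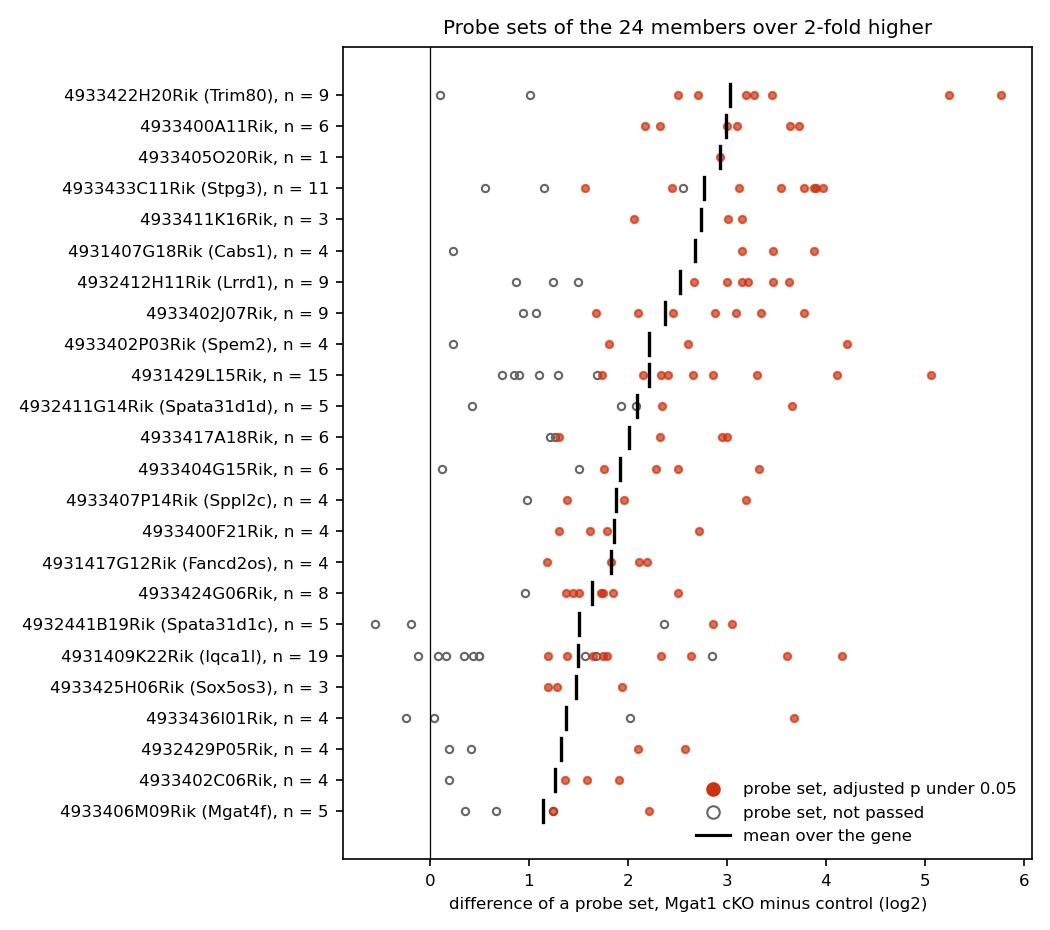
Differences of single probe sets (x axis, log2, Mgat1 cKO minus control) for the 24 genes over 2-fold higher, with called probe sets filled, others open, and the mean over the gene as a bar. The number of probe sets stands beside each name, and the points of 4933422H20Rik reach from 0.10 to 5.77.

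For the 24 genes past 2-fold, the nearest measured gene in RefSeq was called higher in 5 and lower in 1, and for all 190 genes in 21 and 4. Over all genes measured 6.07% were higher and 2.35% lower, so that the count of lower neighbours is near the share of the array. The median difference of the neighbours was 0.05 for the 24 genes and -0.03 for all 190. Of the 9 neighbours that overlap 1 of the 24 genes, 2 were higher. 4933433C11Rik (Stpg3) overlaps Fam166a, which went from 5.46 to 8.43 (2.97, SE 0.10, adjusted p = 5.33e-07), and 4933402P03Rik (Spem2) lies beside Spem1, which went from 4.64 to 7.20 (2.56, adjusted p = 2.03e-06). The neighbour of 4932411G14Rik (Spata31d1d), 4930528D03Rik, rose by 1.10 (adjusted p = 2.02e-05). 4933425H06Rik (Sox5os3) overlaps Sox5, which encodes a transcription factor with a short testis form, and Sox5 rose by 0.88 (adjusted p = 4.73e-04) averaged over its probe sets. The strand of the probes was not used here, so signal of an overlapping pair may be shared. In contrast Fancd2, a DNA repair gene overlapped by 4931417G12Rik (Fancd2os), had a difference of -0.11 (SE 0.06, adjusted p = 0.31), where Fancd2os rose by 1.83 (SE 0.09, adjusted p = 4.10e-06). Mid1, which encodes a ubiquitin ligase and overlaps 4933400A11Rik, had a difference of 0.08 (SE 0.08, adjusted p = 0.584).

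Promoters of the genes were searched for motifs. The shared direction of the genes past 2-fold follows from how they were selected. RefSeq windows on GRCm38.p6, from 250 bases before to 50 after a start, were at hand for 153 of the 190 genes (169 windows). 4 motifs were searched on both strands: TGACGTCA, the full cAMP response element to which CREM of spermatids binds, the shorter TGACG, which lies within the full site, CCAAT and TATAAA. The shares of windows with each were 1.78%, 16.6%, 32.5% and 11.8% for the 190 genes, and 1.79%, 20.8%, 37.4% and 13.6% for all 32851 windows. Of the 20 windows of genes past 2-fold, 1 held TGACGTCA and with it TGACG, 7 held CCAAT and 1 held TATAAA. The first was that of 4933425H06Rik (Sox5os3), 50 bases before the start (chr6:144672618-144672917, plus strand). That of 4931407G18Rik (Cabs1) held CCAAT 59 bases before the start and TATAAA on the reverse strand 197 bases before it (chr5:87979201-87979500, plus strand). The window of 4933417A18Rik held CCAAT 203 and 33 bases before the start (chr13:34924159-34924458, plus strand). These 3 are shown for the motifs they hold, and that of 4933422H20Rik (Trim80), with the largest difference, as a window with no match (chr11:115440295-115440594, plus strand). Each reads 5′ to 3′ toward the gene, with motif bases in capitals.
4933425H06Rik (Sox5os3): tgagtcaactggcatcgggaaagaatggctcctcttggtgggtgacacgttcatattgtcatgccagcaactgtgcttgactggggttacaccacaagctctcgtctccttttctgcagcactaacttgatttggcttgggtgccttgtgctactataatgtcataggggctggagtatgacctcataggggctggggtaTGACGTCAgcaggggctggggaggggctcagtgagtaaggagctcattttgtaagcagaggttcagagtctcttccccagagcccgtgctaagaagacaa
4931407G18Rik (Cabs1): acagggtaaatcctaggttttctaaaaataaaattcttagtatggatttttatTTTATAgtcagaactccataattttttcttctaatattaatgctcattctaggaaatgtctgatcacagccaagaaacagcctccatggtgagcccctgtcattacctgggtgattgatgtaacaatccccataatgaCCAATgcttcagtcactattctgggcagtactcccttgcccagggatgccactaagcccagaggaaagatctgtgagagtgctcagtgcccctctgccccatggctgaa
4933417A18Rik: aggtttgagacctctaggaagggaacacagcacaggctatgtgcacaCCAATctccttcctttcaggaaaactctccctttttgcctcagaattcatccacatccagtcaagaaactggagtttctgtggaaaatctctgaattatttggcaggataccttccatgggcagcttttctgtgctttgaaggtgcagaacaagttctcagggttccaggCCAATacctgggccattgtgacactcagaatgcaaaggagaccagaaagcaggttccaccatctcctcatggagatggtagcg
4933422H20Rik (Trim80): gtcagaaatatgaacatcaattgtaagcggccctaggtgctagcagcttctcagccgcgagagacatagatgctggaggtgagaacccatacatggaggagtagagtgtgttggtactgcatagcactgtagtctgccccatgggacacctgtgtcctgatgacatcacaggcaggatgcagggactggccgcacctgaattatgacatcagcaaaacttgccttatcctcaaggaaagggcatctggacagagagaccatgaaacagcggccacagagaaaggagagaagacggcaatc
A match of letters is a description of the window and not a binding site.

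Other RIKEN clone names of testis libraries are given for comparison. Of 419 genes with RIKEN-1700 names, 181 (43.2%) were higher and 94 passed 2-fold, with a median difference of 0.26. Of 410 genes with RIKEN-4930 names, 138 (33.7%) were higher and 69 passed 2-fold, with a median of 0.12. Within the 190 genes, 9 of 36 RIKEN-4931, 10 of 24 RIKEN-4932 and 41 of 130 RIKEN-4933 genes were higher. These shares were not tested against each other.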

How the data were processed

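RNA of 23 dpp testicular germ cells was measured on 6 Mouse Gene 2.0 ST arrays. The authors made the log2 values by RMA in Affymetrix Expression Console, per the labels (version not given in the sources used here), and the deposited table of exon-level probe sets was used as it stands. RMA normalizes quantiles across the arrays, so values are relative to the other genes of an array. One gene symbol stood on 233753 of the 269751 probe sets, several on 5139 and no symbol on 30859. Probe sets with a single symbol were averaged per gene, and names, classes and neighbours came from RefSeq on GRCm38.p6 (138 of the 190 genes matched by symbol, 52 by synonym).

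All genes, and apart from them all probe sets, were fitted with limma 3.58.1 (lmFit, eBayes) in R 4.3.3 and adjusted by Benjamini-Hochberg. The study's thresholds were an adjusted p under 0.05 and 2-fold. The study tested gene-level values by analysis of variance, which was run as an alternative. On simulated data the fit was checked for recovery of known changes. Precision is limited by the 3 arrays of each genotype. Figures were drawn with matplotlib 3.10.9.

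The genes, the marker lists, the motifs and the rule for named genes were chosen with earlier results of these data known. That rule took Mgat1, the 12 largest rises, up to 6 falls, the 5 highest levels, the 3 genes on each side of 2-fold, the 4 widest ranges of probe sets, up to 8 genes with another current symbol, and from each marker list the highest level and the largest difference. Other genes named here were chosen after their values were seen. 1 gene of this name form is not reported here. Arrays at 22 dpp were not analysed here.

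Alternatives were the methods' analysis of variance, eBayes with a trend, a block on replicate number, group medians in place of means, other fold thresholds, dim probe sets or genes left out, centring, repeated quantile normalization, medians of probe sets, probe sets with several symbols, genes on 1 probe set left out, and each array left out in turn.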

Additional observations from a re-analysis of the deposited data

How the results depend on the processing

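The count of 24 genes over 2-fold higher was 20 to 30 under every alternative that kept the threshold. All 24 were among the genes called with the analysis of variance, the trend, the block, centring and repeated normalization. They were also called with dim probe sets left out, medians of probe sets, rows of several symbols and each array left out. Medians of groups changed only the differences and kept the p-values of the main fit, so no gene could lose its adjusted p. With them 26 genes were over 2-fold higher. Without dim genes 20 of 24 were left in the fit and called. At 1.5-fold 46 genes were higher, and with no fold threshold 60 higher and 4 lower. The 60 higher genes became 39 with the methods' analysis of variance, all among the 60. The 4 lower genes became 11 with the intensity trend, 7 without dim probe sets, 9 without dim genes and 2 with medians of probe sets; the last also put 1 gene, 4933406F09Rik, over 2-fold lower. The causes were not tested. The replicate numbers do not pair the arrays (correlations of deviations -0.02, -0.06 and -0.02 for the same number, and -0.03 to 0.06 for other numbers), and with the replicate block 57 genes were higher, 24 of them over 2-fold, and 2 were lower. Leaving out 1 array in turn gave 51 to 56 higher, 2 to 3 lower, 24 to 25 over 2-fold higher, 0 over 2-fold lower and a median difference of 0.10 to 0.16; 2 genes were lower without control replicate 1, 2 or 3 or Mgat1 cKO replicate 2. Small differences without a call changed sign: 4933424B01Rik to -0.000632 with medians of groups and -0.0239 with medians of probe sets, 4933411K20Rik to -0.0125 with medians of probe sets, and 4933427E11Rik to 0.0675 with rows of several symbols. With arrays left out, 4933427E11Rik ran from -0.109 to 0.0233 and 4933411K20Rik from -0.00534 to 0.0303. Of the other comparisons of a named gene with an alternative that kept all arrays, 305 kept their call and direction, 9 lost and 3 gained the call. The 305 include comparisons with medians of groups, where the p-values were those of the main fit. They also include centring and repeated normalization of values that RMA had already normalized.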

Other observations

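Among the marker genes, the round spermatid marker with the largest difference was Spert (3.22, adjusted p = 3.98e-07 from limma). That with the highest level was Acr (0.21, adjusted p = 0.0776), an acrosomal protease. Of the elongating spermatid markers these were Tnp2 (3.33, adjusted p = 1.45e-06), a transition protein, and Odf2 (0.23, adjusted p = 0.0919), of the outer dense fibres. Spermatogonial Dazl (-0.21) and Uchl1 (-0.21) did not pass, nor did Piwil1 of spermatocytes (-0.06), while Pgk2 rose by 0.55 (adjusted p = 7.86e-04). Gpx5, an epididymal glutathione peroxidase, was lower by -1.74 (adjusted p = 2.61e-04), and Crisp1 had a difference of 0.15 (adjusted p = 0.216). Markers of testis cells outside the germ line were read in RNA of the whole preparation. The largest differences were those of Rhox5 for Sertoli cells (-0.35, adjusted p = 0.0935) and Insl3 for Leydig cells (0.80, adjusted p = 0.202). Insl3 was spread, with an SD of 0.63 in control and 0.52 in Mgat1 cKO. For stromal cells it was Col1a1 (-0.42, adjusted p = 0.0028) and for macrophages Cd74 (-0.45, adjusted p = 0.0103). The highest levels in these lists were those of Cldn11 (-0.11), Cyp17a1 (-0.26), Acta2 (-0.16) and C1qb (-0.37). Of these Cyp17a1 (adjusted p = 0.0321) and C1qb (adjusted p = 0.0221) passed. 4933402N22Rik, a clone-named gene chosen after its values were seen, was at 5.82, 5.81 and 7.01 in the Mgat1 cKO arrays and 6.90, 6.78 and 6.65 in the control arrays, so that replicate 3 of Mgat1 cKO lay apart from the others and the difference of -0.57 did not pass (SE 0.29, adjusted p = 0.284).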
